A study of Homo sapiens with 6 samples.

Results

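ATXN10 encodes ataxin-10, a cytoplasmic protein built from armadillo repeats that is needed for the survival of neurons and that takes part in cell division. An expansion of a short ATTCT repeat within an intron of the gene causes spinocerebellar ataxia type 10. Circular RNAs (circRNAs) arise when the end of a downstream exon, the donor, is spliced back to the beginning of an exon that precedes it, the acceptor. The closed molecule has no free ends, so it withstands the exonuclease RNase R, and reads across its back-splice junction serve to count it. A gene that gives several circles from the same exons shows which of its exon ends take part in such joins.

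The ATXN10 circles were taken as the circRNAs whose annotated host gene is ATXN10, which gave 13 of the 9857 circRNAs listed in the series. The gene was chosen because its summed junction reads were lower in cadmium-exposed cells. The level of each circle in cadmium against control is therefore given as a description, with no test, and the same holds for shares and non-junction reads compared between the groups. Cells of BEAS-2B, a line derived from human bronchial epithelium and immortalised with viral genes, were kept for 20 weeks in 2.0 µM cadmium (3 libraries) or at 0.0 µM (3 libraries). Exposure began 6 hours after seeding, with subculture every 3 days, and both groups grew in DMEM with 10% fetal bovine serum. Whether replicate libraries stem from different cultures is not said in the labels, and their spread, on which every p-value rests, may thus be technical. In total RNA of a cell population, fewer cells that make a circle and less of it per cell cannot be told apart.

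All 13 circles lie on the plus strand of chromosome 22, within the gene at 45671798 to 45845307 (GRCh38, positions counted from 1). Exons are numbered by GENCODE 29 transcript ATXN10-201, which has 12 exons and encodes 475 residues. Both ends of 12 circles fell on exon bounds of this transcript. The remaining circle, novel_circ_0022071, starts inside intron 9 and ends with exon 10. None of the 12 consists of a single exon, and spliced lengths of the 13 ran from 251 to 1057 bases. Acceptors were shared: 4 circles start at exon 2 and 4 at exon 4, while exons 3, 6, 7 and 8 each start 1. Donors were shared as well, with 5 circles ending at exon 9, 3 at exon 5, 2 at exon 6, 2 at exon 7 and 1 at exon 10. Exon 9 precedes intron 9, at 66420 bases the longest intron of the transcript.

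**Figure D1:**
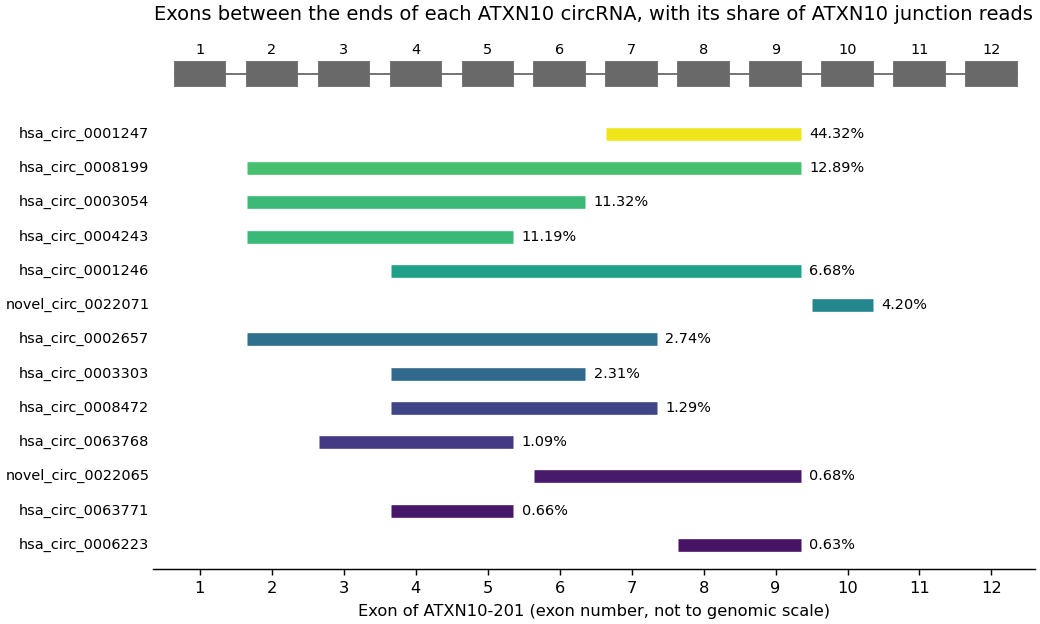
Map of the 13 ATXN10 circles against the 12 exons of ATXN10-201 (horizontal axis, exon number, not to genomic scale). Each bar runs from the acceptor exon to the donor exon, brighter bars and the printed percent give the share of all ATXN10 junction reads in 6 libraries, and the bar of novel_circ_0022071 starts in intron 9; hsa_circ_0001247 (exons 7 to 9) holds 44.32%.

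The junctions below show how the circles combine a small set of exon ends. They are those of the 5 circles with at least 5% of ATXN10 reads and of hsa_circ_0063768, the 1 circle whose levels were higher in every cadmium library than in every control. Each gives the last 20 bases of the donor exon in lower case, followed by the first 20 bases of the acceptor exon in capitals (GENCODE 29 transcript sequence, 5′ to 3′, DNA letters).
hsa_circ_0001247, exon 9 to exon 7: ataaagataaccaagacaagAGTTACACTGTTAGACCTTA
hsa_circ_0008199, exon 9 to exon 2: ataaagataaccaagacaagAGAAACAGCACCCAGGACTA
hsa_circ_0003054, exon 6 to exon 2: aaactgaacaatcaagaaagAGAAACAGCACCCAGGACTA
hsa_circ_0004243, exon 5 to exon 2: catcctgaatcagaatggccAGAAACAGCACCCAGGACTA
hsa_circ_0001246, exon 9 to exon 4: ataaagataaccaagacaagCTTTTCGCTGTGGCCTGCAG
hsa_circ_0063768, exon 5 to exon 3: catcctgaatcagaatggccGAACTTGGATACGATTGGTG
The circles hsa_circ_0001247, hsa_circ_0008199 and hsa_circ_0001246 share the donor side, and the 3 circles that start at exon 2 share the acceptor side. The circles hsa_circ_0004243 and hsa_circ_0063768 have the donor of exon 5 in common and differ in the acceptor.

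The most abundant circle, hsa_circ_0001247, joins exon 9 back to exon 7 (45729425 to 45740538). Its deposited spliced length of 445 bases equals the sum of exons 7 to 9, which code for residues 243 to 391. The 300 bases around its junction are shown, because this circle had the largest share of the gene's reads in every library, with the 150 bases before the junction in lower case and the 150 after it in capitals.
hsa_circ_0001247: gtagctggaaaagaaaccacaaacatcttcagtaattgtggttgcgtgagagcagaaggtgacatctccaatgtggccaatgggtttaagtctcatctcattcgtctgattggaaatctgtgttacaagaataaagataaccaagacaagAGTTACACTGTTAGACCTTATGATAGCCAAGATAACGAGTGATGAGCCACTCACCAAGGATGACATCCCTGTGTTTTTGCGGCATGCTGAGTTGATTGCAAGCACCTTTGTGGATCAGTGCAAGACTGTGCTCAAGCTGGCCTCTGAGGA
Taken as exons 7 to 9, the circle has a GC content of 46.3%. That length is not a multiple of 3, so the reading frame would shift at the junction. Only 4 of the 12 exonic circles have a length that is a multiple of 3, among them hsa_circ_0003054 (612 bases) and hsa_circ_0004243 (531 bases). For 11 of the 12 the deposited spliced length equals the sum of the exons from acceptor to donor. The exception is novel_circ_0022065, whose 251 bases are those of exons 6 and 9 without exons 7 and 8. The exon lists deposited for 5 of the 13 circles do not add up to their spliced length, so the inner exons of a circle are known less well than its ends. The leading circle is among the 5, as its 4 listed segments come to 605 bases against 445. So are hsa_circ_0008199 (817 bases against 1057) and hsa_circ_0001246 (616 against 782). Junction reads show the ends only.

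ATXN10 was among the hosts with the most circular reads. Over the 6 libraries its circles took 4118 junction reads, and 16 of 3742 host genes had more. In number of circles, 28 host genes had more than 13 and 8 others had 13, where the median host had 2. The leading circle took 44.3% of the gene's reads, and it was the most abundant in 6 of 6 libraries. Among the 90 hosts with 10 or more circles the median share of the leading circle was 33.6%, and 21 hosts had a higher share than ATXN10. Library totals ran from 133185 to 225769 junction reads. Control replicates 1 and 3 stood apart from the other 4 libraries in non-junction reads over all circRNAs (2.09 and 1.88 per junction read, against 3.87 to 4.34), so fits with control replicate 2 as the only control are given beside the results.

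In controls 1 circle stood well above the others. Levels are in CPM, junction reads per 1000000 after scaling by trimmed mean of M-values (TMM), and a junction is counted once whatever the length of its circle. The exon 7 to 9 circle hsa_circ_0001247 stood at 2197 ± 278 CPM in controls (SD, n = 3). Next came hsa_circ_0008199, which joins exon 9 to exon 2, at 649 ± 95.6 CPM, hsa_circ_0004243 at 555 ± 99.5 CPM and hsa_circ_0003054 at 516 ± 62.4 CPM (SD, n = 3 each). These 3 circles start at exon 2. Their control ranges overlapped, although hsa_circ_0008199 was the highest of the 3 in each control library, and the order of the other two was not the same in every library. The circle of exons 4 to 9, hsa_circ_0001246, stood at 351 ± 69.3 CPM (SD, n = 3), below all 3 of them in every control library. The other 8 circles each held under 5% of ATXN10 reads, with 26 to 173 reads over the 6 libraries. Donor exon 9 was the commonest end, and its 5 circles took 65.2% of all ATXN10 reads. Acceptor exon 7 took 44.3% with 1 circle, acceptor exon 2 took 38.1% with 4 circles and acceptor exon 4 took 10.9% with 4 circles.

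The summed level of ATXN10 circles was lower in all 3 cadmium libraries than in any control. It stood at 5103, 4607 and 4885 CPM in control replicates 1 to 3 and at 3365, 3773 and 3573 CPM in cadmium replicates 1 to 3. Group means were 4865 ± 249 and 3570 ± 204 CPM (SD, n = 3 each), so the cadmium mean was 26.6% below control. As a part of all junction reads, ATXN10 took 0.485% ± 0.0219 in controls, against 0.358% ± 0.0225 in cadmium libraries (SD, n = 3 each). The fit over all host genes gave a log2 fold change of -0.45 (SE 0.10), where the median of all 3008 tested host genes was 0.00107. ATXN10 was not past the threshold there (edgeR quasi-likelihood test, Benjamini-Hochberg adjusted p under 0.05), while DESeq2 on the same counts placed it past its threshold. Of all tested host genes 0.233% passed with edgeR (0.199% lower and 0.0332% higher), and 50% had a negative log2 fold change. Every cadmium library lay below every control for 10% of them and above for 9.28%. This gene was chosen by that contrast, so nothing is read from these shares. With control replicate 2 as the only control library, the log2 fold change was -0.37.

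**Figure D2:**
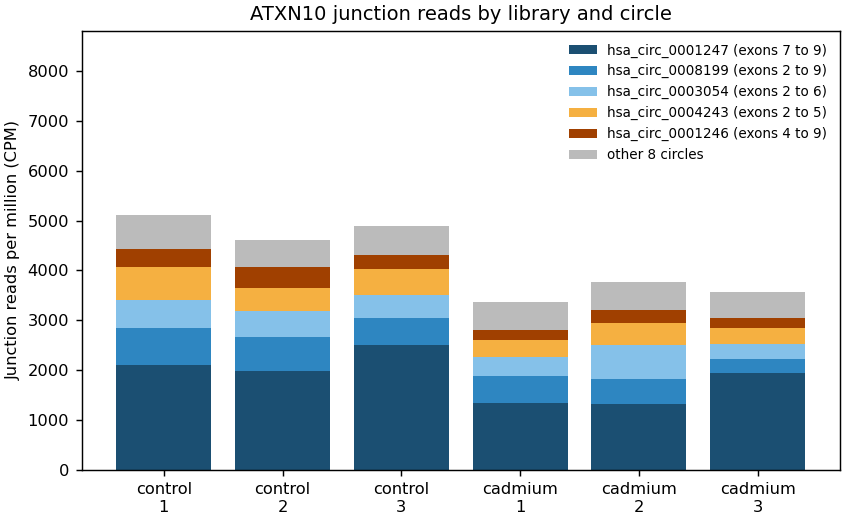
Stacked bars of ATXN10 junction reads per 1000000 (CPM, vertical axis from 0) in each library, divided into the 5 circles with at least 5% of the reads and the sum of the other 8. Cadmium libraries reach 3365 to 3773 CPM and control libraries 4607 to 5103 CPM.

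The exon 7 to 9 circle made up about as much of the lower total as of the reads. Counts of hsa_circ_0001247 gave 2109, 1973 and 2509 CPM in control replicates 1 to 3, against 1339, 1318 and 1940 CPM with cadmium. Replicate 3 was the highest library in both groups, and cadmium replicate 3 lay just below control replicate 2. The cadmium mean was 1532 ± 353 CPM (SD, n = 3), and the fitted difference from control was -0.52 on the log2 scale (SE 0.17). The difference of -664.9 CPM makes up 51.4% of the net difference of -1295 CPM in the ATXN10 sum, beside its mean share of 45.2% of ATXN10 reads in controls. That part ran from 39.6% without control replicate 3 to 67.0% without cadmium replicate 3. Without this circle the sum still ran from 2376 to 2995 CPM in controls and from 1633 to 2455 CPM with cadmium, and these ranges overlap. The fitted log2 fold change of the sum without it was -0.39.

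All 4 circles that start at exon 2 had lower means with cadmium, and differences among them were not tested. For hsa_circ_0008199 (exons 2 to 9, 45689712 to 45740538) the levels were 724, 682 and 541 CPM in controls and 540, 507 and 274 CPM with cadmium. The groups were separated by the narrowest of margins, between control replicate 3 and cadmium replicate 1, and the log2 fold change was -0.57 (SE 0.24), or -0.33 without cadmium replicate 3. For hsa_circ_0004243 (exons 2 to 5, ending at 45702847) the levels were 665, 472 and 529 CPM in controls and 340, 456 and 325 CPM with cadmium. The groups again lay close at control replicate 2 and cadmium replicate 2, with a log2 fold change of -0.58 (SE 0.21). The third, hsa_circ_0003054 (exons 2 to 6, ending at 45718493), had 576, 522 and 451 CPM in controls and 377, 666 and 306 CPM with cadmium. Its groups overlapped because cadmium replicate 2 was the highest of all 6 libraries, and the log2 fold change was -0.21 (SE 0.25). Leaving out cadmium replicate 2 gave -0.62, leaving out cadmium replicate 3 gave -0.0050 and leaving out control replicate 1 gave -0.12, so single libraries decide its size. The fourth circle from this acceptor, hsa_circ_0002657 (exons 2 to 7), was low, at 148 ± 40.2 CPM in controls (SD, n = 3). The cadmium libraries gave 83.3 ± 21.7 CPM (SD, n = 3), and the fitted value was -0.81 (log2 scale, SE 0.35).

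From acceptor exon 4, the 4 circles together stood at 560 ± 94.5 CPM in controls, against 352 ± 57.8 CPM in cadmium libraries (SD, n = 3 each). Their largest member, hsa_circ_0001246 (exons 4 to 9, 45700282 to 45740538), had 364, 414 and 277 CPM in controls and 200, 246 and 191 CPM with cadmium. Each cadmium library lay below each control, and the log2 fold change was -0.72 (SE 0.24). The circle hsa_circ_0008472 (exons 4 to 7) rested on 20, 11 and 10 reads in controls and 6, 3 and 3 with cadmium, with a log2 fold change of -1.43 (SE 0.49). Without cadmium replicate 1 it was -1.92. The circle hsa_circ_0003303 (exons 4 to 6) had overlapping groups and a log2 fold change of -0.62 (SE 0.41), which became -0.28 without control replicate 1, -1.03 without cadmium replicate 1 and 0.04 with control replicate 2 as the only control library. The fourth, hsa_circ_0063771 (exons 4 to 5), was outside the fit and had a higher mean with cadmium. It stood at 19.5 ± 20.3 CPM in controls and 35.2 ± 26.5 CPM with cadmium (SD, n = 3 each), with overlapping groups. Grouped by donor, the 2 circles ending at exon 7 stood at 225 ± 51.3 CPM in controls and 112 ± 10.2 CPM under cadmium (SD, n = 3 each). The 5 circles ending at exon 9 stood at 3246 ± 144 and 2247 ± 160 CPM (SD, n = 3 each). For both donors the groups did not overlap, whereas for donors 5, 6 and 10 they did, as they did for acceptor exon 2. Donor exon 10 had a higher mean with cadmium (161 ± 31.1 CPM in controls against 206 ± 54.0 CPM, SD, n = 3 each). In controls hsa_circ_0001247 alone made up 2197 of the 3246 CPM of donor exon 9. No share over other genes is at hand for such sums, and as the gene was chosen on this contrast, nothing is read from them.

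**Figure D3:**
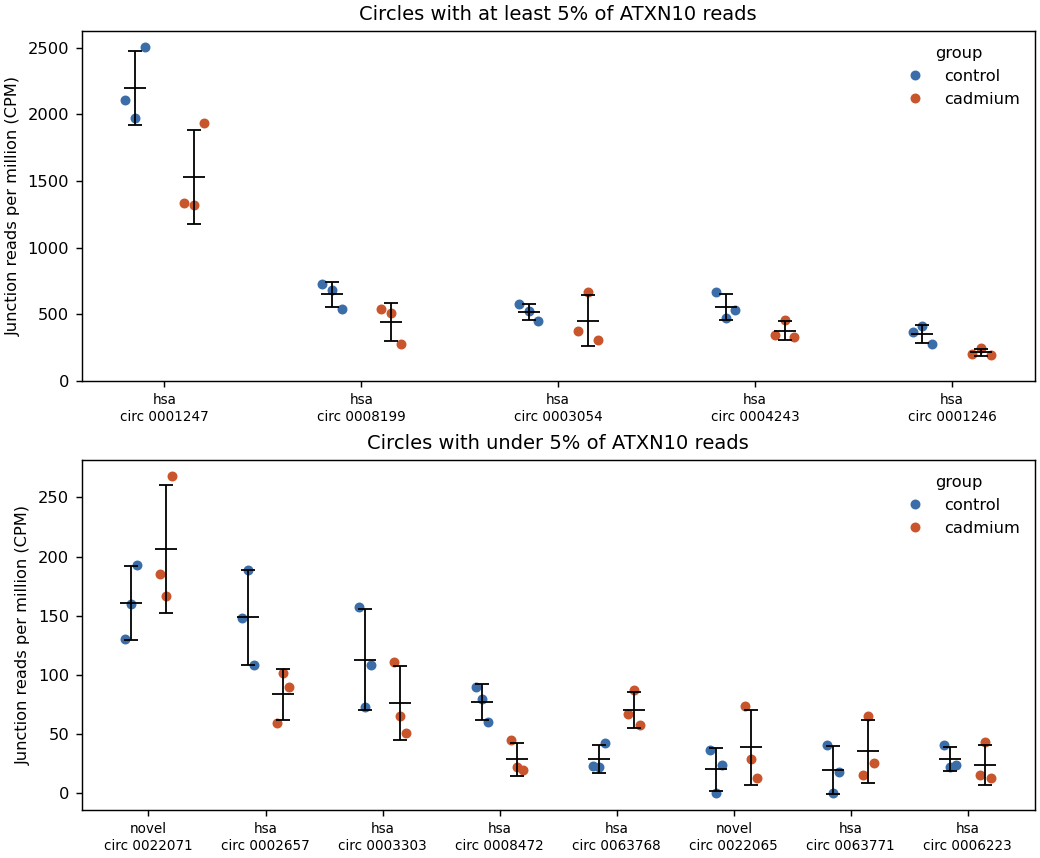
Junction reads per 1000000 (CPM, vertical axes) of each ATXN10 circle in 3 control and 3 cadmium libraries, 1 point per library, with black bars for mean ± SD. The upper panel holds the 5 circles with at least 5% of ATXN10 reads and the lower panel the other 8; hsa_circ_0063768 is the one whose cadmium points (57.4 to 86.9 CPM) all lie above its control points (21.8 to 42.1 CPM).

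Over all 13 circles, 9 had lower means with cadmium and 4 had higher means. Of the 4, novel_circ_0022065 and hsa_circ_0063771 had too few reads for the fit, and the pair below was tested. For hsa_circ_0063768 (exons 3 to 5, 45692996 to 45702847) 5, 3 and 7 reads were counted in controls and 9, 12 and 9 with cadmium, which is 22.5, 21.8 and 42.1 CPM against 66.6, 86.9 and 57.4 CPM. Its log2 fold change was 1.27 (SE 0.50), while the circle that shares its donor, hsa_circ_0004243, was lower with cadmium. For novel_circ_0022071 (45793545 to 45807022) the levels were 130, 160 and 193 CPM in controls and 185, 167 and 268 CPM with cadmium, and the groups overlapped (log2 fold change 0.38, SE 0.28). Without cadmium replicate 3 that value was 0.12, and without control replicate 1 it was 0.23. This circle shares no exon end with the other 12. Leaving it out moved the fitted log2 fold change of the ATXN10 sum to -0.49. That fit was added after seeing the data. Since the circle had a higher mean with cadmium, its removal could only lower the value.

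The circle novel_circ_0022071 is classed as intronic in the deposited annotation, but 1 of its ends is exonic. Its listed segments are 45793545 to 45793778, 45797163 to 45797226 and 45806959 to 45807022. The last is exon 10 of ATXN10-201. The first overlaps the first exon of the shorter transcript ATXN10-203, which starts at 45793596 and has the same end. The middle segment overlaps no ATXN10 exon of GENCODE 29. The circle lies past exons 2 to 9, which give the other 12.

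Of the 13 circles, 10 had enough reads for the fit and 0 passed the threshold by edgeR, against 0.0809% of the 6182 circRNAs tested. The log2 fold change was negative for 8 and positive for 2, with a median of -0.57 beside 0.00974 over all circRNAs tested and a background of 49.3% with a negative value. Every cadmium library lay below every control for 6 of the 13 circles and above for 1, all 7 among the tested. The background for the first was 7.78% of tested and 9.34% of listed circRNAs, and for the second 7.52% and 8.49%. With control replicate 2 as the only control library the log2 fold change was -0.37 for hsa_circ_0001247, -0.64 for hsa_circ_0008199, -0.34 for hsa_circ_0004243, -0.97 for hsa_circ_0001246 and 1.64 for hsa_circ_0063768. The gene was chosen on this contrast, so these counts describe its circles and support nothing. The 3 circles outside the fit were novel_circ_0022065 (28 reads), hsa_circ_0063771 (27 reads) and hsa_circ_0006223 (26 reads). The first and the second are listed at 0 in control replicate 2, and since the table holds no value of 1, a listed 0 may hide a read. The authors' deposited table marks 4 of the 13 circles as significant, all with a negative log2 fold change and none by an adjusted p under 0.05. In that table hsa_circ_0001247 has a log2 fold change of -0.50, an unadjusted p of 0.0125 and an adjusted p of 0.965.

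**Figure D4:**
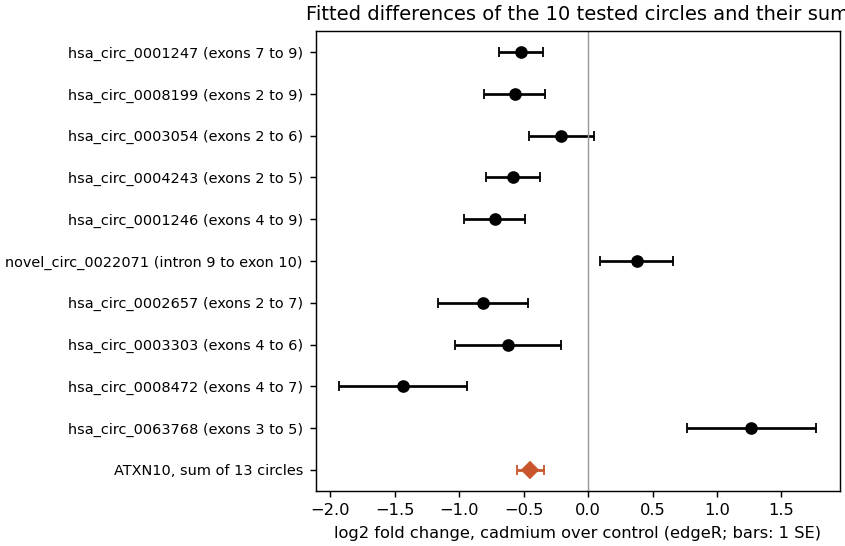
Fitted log2 fold changes (horizontal axis, cadmium over control, edgeR) of the 10 tested ATXN10 circles (black points) and of the sum of all 13 (orange diamond), with bars of 1 SE. Values run from -1.43 for hsa_circ_0008472 to 1.27 for hsa_circ_0063768, and the sum is at -0.45.

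The share of the leading circle overlapped between the groups. The leading circle hsa_circ_0001247 took 41.3%, 42.8% and 51.4% of ATXN10 reads in control replicates 1 to 3, with Wilson 95% intervals of 38.5 to 44.2, 39.0 to 46.7 and 47.9 to 54.8. With cadmium it took 39.8%, 34.9% and 54.3%, with intervals of 35.4 to 44.3, 31.0 to 39.1 and 50.1 to 58.4. Replicate 3 had the highest share in both groups, and the group means of 45.2% ± 5.41 and 43.0% ± 10.1 (SD, n = 3 each) differed by less than either SD. These intervals cover counting error only, and as no molecular identifiers are named, several reads may repeat 1 molecule. The share taken by donor exon 9 was 66.8% ± 2.49 in controls, against 63.1% ± 5.73 in cadmium libraries (SD, n = 3 each), again a difference smaller than the larger SD.

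Shares did not overlap between the groups for 2 of the 13 circles, both higher with cadmium. Over all circles of host genes with 2 or more circles and reads in every library, 8.54% had such a higher share. These shares are taken of a sum that was 26.6% lower with cadmium, so a circle at a steady level would have a higher share. The intron 9 to exon 10 circle novel_circ_0022071 took 3.32% ± 0.704 of ATXN10 reads in controls, against 5.80% ± 1.57 in cadmium libraries (SD, n = 3 each). Its closest libraries were control replicate 3 at 3.94% (Wilson 95% interval 2.81 to 5.51) and cadmium replicate 2 at 4.41% (2.96 to 6.54), so these libraries do not differ beyond counting error. The exon 3 to 5 circle hsa_circ_0063768 took 0.592% ± 0.235 and 1.96% ± 0.348 (SD, n = 3 each). For that circle the closest libraries were control replicate 3 at 0.862% (0.418 to 1.77) and cadmium replicate 3 at 1.61% (0.848 to 3.03).

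Non-junction reads are listed beside the junction reads of a circle, and the way they were counted is not stated. They are given for 11 of the 13 ATXN10 circles in every library. Their mean over these circles was 1814, 1683 and 1440 per 1000000 junction reads in control replicates 1 to 3, against 1167, 1270 and 1260 under cadmium. Each cadmium library lay below each control, with means of 1646 ± 190 and 1232 ± 57.2 (SD, n = 3 each) and a ratio of 0.749. The ratio of ATXN10 junction reads, summed over all 13 circles, was 0.739 relative to library totals and 0.734 on the CPM scale. On the scale of junction reads both kinds of read were thus lower by a like proportion, though the sets of circles differ. Non-junction ratios of single circles, on the TMM scale, ran from 0.703 for hsa_circ_0001247 to 1.21 for novel_circ_0022071. One by one, on the scale of the TMM library size, 8 of the 11 circles had every cadmium library below every control (1.48% of the 6090 circRNAs with non-junction reads in every library), and 10 of 11 had a ratio below 1 (16.9%). Relative to all non-junction reads 9 of the 11 were so separated (12.5%). Nothing is read from these counts, as the gene was chosen on its lower junction reads in the same libraries. The 1 circle with a ratio above 1 was novel_circ_0022071, at 11, 17 and 12 non-junction reads in controls and 13, 17 and 12 with cadmium. Circles that share exons may share these reads, so the 11 values are not taken as independent.

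The difference between libraries in non-junction reads, named above and taken over the 6090 circRNAs that have them in every library, changes the size of this ratio. Set against all non-junction reads, ATXN10 stood at 869, 388 and 766 per 1000000 in control replicates 1 to 3 and at 280, 328 and 305 per 1000000 with cadmium. On this scale the ratio of the group means was 0.451, and control replicate 2 lay near the cadmium libraries. The part of this difference between libraries in the lower ATXN10 reads was not tested. A weighted junction share, the doubled junction reads over the sum of doubled junction reads and non-junction reads, was 34.8% ± 2.82 for ATXN10 in controls, against 34.1% ± 0.804 in cadmium libraries (SD, n = 3 each). Within the gene this share ran from 2.23% ± 1.16 for hsa_circ_0063768 to 84.1% ± 2.07 for hsa_circ_0008199 in controls (SD, n = 3 each). It was 78.4% ± 4.59 for the leading circle and 80.1% ± 6.93 for novel_circ_0022071.

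**Figure D5:**
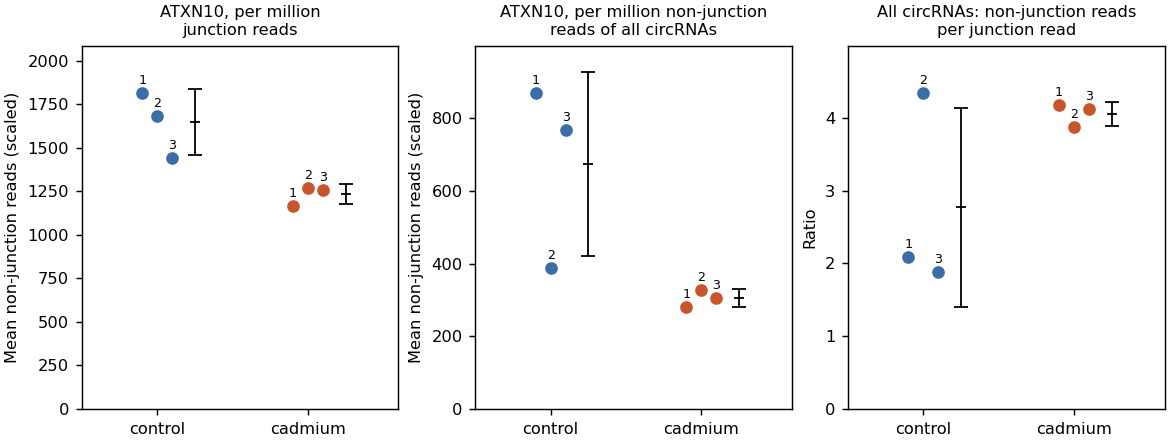
Non-junction reads in 3 control and 3 cadmium libraries (points, numbered by replicate; bars are mean ± SD): the mean over 11 ATXN10 circles per 1000000 junction reads (left) and per 1000000 non-junction reads of all circRNAs (middle), and the ratio of non-junction to junction reads over 6090 circRNAs (right). ATXN10 values are lower in cadmium on both scales, and control replicates 1 and 3 lie apart from the other 4 libraries on the right.

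Ataxin-10 binds the beta subunits of heterotrimeric G proteins and the glycosyltransferase OGT, and it is found with proteins of the ciliary base and of cytokinesis. Of 18 genes on a list of such partners 10 were hosts of listed circRNAs and 6 could be tested. Of these 6, 0 passed the threshold by edgeR (0.233% of all tested hosts), DESeq2 or limma. In the edgeR fit 1 of the 6 had an unadjusted p under 0.05 (12.5% of all tested hosts). Their log2 fold changes were negative for 5, beside 50% of all tested hosts, and positive for 1, with a median of -0.37. The most abundant was GNB1, which encodes a G protein beta subunit, with 1692, 1473 and 1718 CPM over its 11 circles in controls and 1202, 1266 and 1084 CPM with cadmium. Each cadmium library of GNB1 lay below each control (log2 fold change -0.46, SE 0.13, edgeR adjusted p = 0.204). NPHP4, a gene of the ciliary transition zone, had a log2 fold change of 0.11 and the mitotic kinase gene AURKB -0.09 (edgeR adjusted p = 0.891 and 0.953).

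Genes of other repeat-expansion disorders and relatives of the ataxins form a second list. Of 41 genes 13 were listed as hosts and 11 could be tested. By edgeR (0.233% of all tested hosts), DESeq2 or limma 0 passed the threshold. In the edgeR fit 0 had an unadjusted p under 0.05 (12.5% of all tested hosts). The median log2 fold change of the list was -0.07. ATXN2, which encodes an RNA-binding ataxin, had 5310 ± 489 CPM in controls (SD, n = 3) and a fitted difference of -0.09 on the log2 scale (edgeR adjusted p = 0.735). ATXN7, which encodes a subunit of the SAGA coactivator, stood at 2466 ± 491 and 3742 ± 2737 CPM (SD, n = 3 each, edgeR adjusted p = 0.726). Its higher cadmium mean came from replicate 3 alone, at 6902 CPM. The same library was high for the ubiquitin ligase gene MARCH6, with 1617 CPM against 466 to 759 CPM in the other 5 libraries (edgeR adjusted p = 0.617).

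Host genes near ATXN10 on chromosome 22 were taken within 3000000 bases of its circles. Of 10 such hosts 8 could be tested, of which 0 passed the threshold by edgeR (0.233% of all tested hosts), DESeq2 or limma. In the edgeR fit 2 of the 8 had an unadjusted p under 0.05, beside the 12.5% of all tested hosts. In this list 5 had a negative and 3 a positive log2 fold change, and the median was -0.30. It was -0.042 without control replicate 1, -0.068 without cadmium replicate 1 and 0.00872 with control replicate 2 as the only control library. The nearest tested host upstream, FAM118A, lay 357002 bases away and was fitted at 0.25 (edgeR adjusted p = 0.851). The nearest downstream, the let-7b host transcript MIRLET7BHG (listed by its Ensembl ID) at 290904 bases, had -1.33 (SE 0.53, edgeR adjusted p = 0.323). Its 1 circle was low, at 87.6, 147 and 62.7 CPM in controls and 68.5, 15.1 and 32.1 CPM with cadmium, and the groups overlapped. The most abundant neighbour, TBC1D22A, fitted at -0.57 (edgeR adjusted p = 0.356), came to 318 ± 15.2 CPM in controls against 213 ± 65.8 CPM with cadmium (SD, n = 3 each). The cadherin-family receptor gene CELSR1 had -0.38 and GRAMD4 0.05 (edgeR adjusted p = 0.626 and 0.962).

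The host genes with library profiles closest to ATXN10 were ARHGAP29, GNB1 and MIB1. Closeness was the root mean square difference of log2 CPM, centred over the 6 libraries, among 3007 other host genes. It was 0.06 for ARHGAP29, 0.06 for GNB1 and 0.07 for MIB1, where the median gene stood at 0.42. MIB1, a ubiquitin ligase gene of the Notch pathway with 15 circles, stood at 3226 ± 163 CPM in controls, against 2408 ± 65.1 CPM in cadmium libraries (SD, n = 3 each). Its difference between the groups had the size of that of ATXN10, with a log2 fold change of -0.42. Over 6 libraries in 2 groups, any host that is lower with cadmium by a like amount and varies little within the groups comes out as close.

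Marker genes say little on cell identity here, since only hosts of circRNAs are listed. Of 26 epithelial markers 1 was a listed host (TJP1, a tight junction gene), of 18 fibroblast or mesenchymal markers 4, of 10 immune markers 0 and of 6 endothelial markers 0. Keratin and cadherin genes were not among the listed epithelial hosts. TJP1 ran from 314 to 366 CPM in controls and from 221 to 294 CPM with cadmium. The 4 mesenchymal hosts (ZEB1, BNC2, COL5A1 and ZEB2) summed to 674 to 790 CPM in controls and 449 to 558 CPM with cadmium. ZEB1, the most abundant of them, overlapped between the groups (log2 fold change -0.29), while the other 3 did not. BNC2 differed most, at 197 ± 35.3 CPM in controls and 98.1 ± 7.88 CPM with cadmium (SD, n = 3 each). Every cadmium library lay below every control for 10% of all tested host genes. TJP1 and the mesenchymal sum were lower along with ATXN10. None of the 5 genes passed the edgeR test, and their part in the lower ATXN10 total was not tested.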

How the data were processed

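Total RNA of 6 libraries was depleted of ribosomal RNA, digested with RNase R and made into dUTP stranded libraries, per the labels' protocols. The deposited counts are whole back-splice junction reads per circRNA. The deposited TPM values are these counts per 1000000 of the library total. The authors' deposited comparison holds mean normalised reads (a signal), log2 fold changes and p-values. The submitters' processing notes name Bowtie2 2.2.8, Bowtie, DESeq 1.10.1 and hg19, with no role. Which caller found the circRNAs is not stated in these sources. Although hg19 is named, the positions follow GRCh38, since both ends of 12 ATXN10 circles match exon bounds of GENCODE 29. Coordinates are given in that build.

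Counts were tested with edgeR 4.0.16 under R 4.3.3, by quasi-likelihood F test (TMM, robust fitting, filterByExpr with minimum count 5 and minimum total 15, Benjamini-Hochberg adjusted p under 0.05) on 6182 circRNAs and on 3008 host genes with their circRNAs summed. Left out of the sums were 240 circRNAs with more than 1 host and 74 with none. Standard errors were taken as the fold change on the log2 scale divided by root F. Alternatives were other size factors, other filters, DESeq2 1.42.0, limma 3.58.1 on log2(TPM + 1), a replicate block and leaving out each library. CPM of single circles and their sum use the TMM sizes of the circRNA fit, and CPM of other hosts those of the host fit. Within each group any 2 libraries differed beyond sampling of reads, with chi-square over its degrees of freedom of 1.59 to 2.49, so none was taken as a repeat deposit. The fits were tested on simulated data with 200 changed features. Small fold changes were rarely recovered there, on average over features of all read levels. The recovery for features as abundant as the ATXN10 sum or its leading circle was not taken apart. A count of 0 past the threshold does not mean that there was no difference. No column of per-sample values was left unused.

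The members, gene lists and rules were chosen with earlier results of these data known. All 13 circles are described. Levels per library are given for circles with at least 5% of ATXN10 reads. Of each list the 3 most abundant tested hosts, those past the threshold and the nearest neighbours are named. Other single values were chosen after they were seen.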

Additional observations from a re-analysis of the deposited data

How the results depend on the processing

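The log2 fold change of the ATXN10 sum was negative in the main fit and in all 16 others. Among the 16 are fits of the sum without hsa_circ_0001247 and of the sum without novel_circ_0022071. The log2 fold change of the full sum lay between -0.51 and -0.42 when single libraries were left out. It was -0.37 with control replicate 2 as the only control library (chosen after seeing the data, the spread of the lone control being assumed equal to that of cadmium). The sum passed the threshold in 1 of the 16, DESeq2. Of the single circles, hsa_circ_0003303 changed sign with control replicate 2 alone (0.040), and no other tested circle did in any fit run. Host genes past the threshold numbered 7, with 11 by DESeq2, 4 by limma, 3 with control replicate 2 alone and 3 to 13 when single libraries were left out. Single circRNAs numbered 5, with 3 with control replicate 2 alone (all 3 higher) and 0 to 13 when single libraries were left out. The median of the neighbour list, -0.30, was 0.00872 with control replicate 2 alone and -0.42 to -0.042 without single libraries, with -0.042 without control replicate 1 and -0.068 without cadmium replicate 1. The log2 ratio of ATXN10 non-junction reads was -1.15 relative to all non-junction reads, in place of -0.42, and -0.51 to -0.34 without single libraries. The share of the leading circle ran from 42.1% to 47.1% in controls and from 37.4% to 47.0% with cadmium without single libraries. Same-numbered libraries deviated together only weakly (correlations 0.0002, 0.0216 and 0.0517), so the numbers were not taken to pair them. With the replicate block 6 host genes and 4 circRNAs passed, and the log2 fold change of the ATXN10 sum was -0.45. Depth limits the circles under 5% of ATXN10 reads, whose counts per library were at most 42.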
